A study of Rattus norvegicus with 8 samples.

Results

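The cytosolic ribosomal proteins are the protein parts of the ribosome that translates nuclear mRNAs. They were taken here as the array probe sets whose single gene symbol in the platform annotation was that of a cytosolic ribosomal protein (Rpl or Rps followed by a digit, Rpsa, or Rplp0 to Rplp2), without the Rps6k kinases and the pseudogene symbols. The rule found 55 probe sets for 48 genes, of 31099 probe sets and 14218 genes with a single symbol on the array, and the brightest probe set stood for each gene. Of the 48 genes, 13 encode small subunit proteins, 29 large subunit proteins and 6 are paralogues or copies that are kept apart below (Rps4y2, Rps27l, Rpl3l, Rpl7l1, Rpl26l1 and Rpl39l1). The rule used no measured difference between the groups.

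RNA came from a fast-twitch muscle of the shin, the tibialis anterior, of adult Sprague-Dawley rats weighing 200 ± 40 g at the start. The 4 hyperthyroid rats received T3, the active thyroid hormone, at 25 µg for each 100 g of weight into the abdomen every 2 days for 6 weeks, and their muscles were taken 24 h after the last dose. The 4 controls came from the same random division of animals and were untreated, with no injections named for them. Each group held 3 males and 1 female, and which array was the female's is not given. Each rat gave 1 array, so replicates are animals. Arrays are named by the replicate numbers of the labels, 1, 3, 5 and 2 for hyperthyroid rats and 7, 8, 9 and 11 for controls. T3 was injected for weeks, so the comparison describes a lasting excess of hormone and not its first effects. Extraocular muscles of these rats, also part of the design, were not analysed here.

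A ribosome has a small subunit, which reads the mRNA, and a large subunit, which joins amino acids and lets the growing chain out through a tunnel. Nearly all of its proteins are present once per ribosome, and most ribosomal protein mRNAs begin with a C followed by a run of pyrimidines, the terminal oligopyrimidine (TOP) tract, through which mTORC1 and the protein Larp1 control their translation. In skeletal muscle, ribosome number sets the capacity for protein synthesis, and thyroid hormone is known to raise both synthesis and breakdown of muscle protein. Arrays measure mRNA, so translation of these mRNAs was not observed.

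The deposited values are intensities that were scaled to one target per array, and differences are given as log2 fold changes of intensity + 3.41, hyperthyroid over control, with the standard error (SE) of limma. Array medians ran from 38.8 to 42.0 in hyperthyroid and from 43.5 to 54.9 in control rats, and the 100 brightest probe sets held 22.6% ± 1.18 (SD, n = 4) of all signal in hyperthyroid and 26.6% ± 0.880 (SD, n = 4) in control rats, with no overlap. The ratio of 3' to 5' Gapdh signal, a sign of RNA or label length, also did not overlap (log2 0.27 to 0.39 against 0.41 to 0.54), while that of actin did (0.52 to 0.93 against 0.56 to 1.11), and their part in the results was not tested. Ribosomal protein probe sets held 3.58% to 3.80% of the signal in hyperthyroid and 3.49% to 3.78% in control rats. Of the 12 skeletal muscle fibre markers 11 were measured, and 9 of the 11 were below 0 in hyperthyroid rats as deposited (median -0.39). Of these, 7 had an unadjusted p under 0.05 (5.21% of all genes did, downward) and 5 had groups that did not overlap (3.21% of all genes, downward). Their median log2 level was 15.2. At 14 and over, 37 of 38 genes that are not ribosomal proteins were below 0 as deposited, and their median of -0.39 became -0.011 under quantile normalization. All 7 slow-fibre markers (median -3.27) and all 5 smooth muscle markers (median -0.57) were below 0 too. Of these, 6 and 2 had an unadjusted p under 0.05 (5.21% of all genes, downward), and in both lists 0 had groups that did not overlap. High slow-fibre values came from controls 7 and 11. In controls 7, 8, 9 and 11 Myh7 read 5570, 56.0, 163 and 2692 and Tnni1 4458, 278, 204 and 2850. In hyperthyroid rats 1, 3, 5 and 2 Myh7 read 169, 5.96, 5.83 and 45.2 and Tnni1 253, 76.2, 74.8 and 243. By its mean level per array, none of the 9 lists of cell type markers separated the groups. The slow-fibre list reached from -3.68 to 0.010 around its mean in hyperthyroid and from -0.54 to 3.92 in control rats, control 7 being the highest and hyperthyroid 5 the lowest. The smooth muscle list reached from -0.72 to 0.020 and from 0.010 to 0.68, with the same 2 arrays at the ends. The fibroblast, adipocyte and macrophage lists had medians above 0 (0.15, 0.81 and 0.29), and hyperthyroid 5 was the highest array in each. The Schwann cell, endothelium and erythroid lists had medians below 0 (-0.19, -0.17 and -0.30). The part of fibre or cell type mixture in the ribosomal protein results was not tested, and in whole muscle fewer cells of a type cannot be told apart from less RNA per cell.

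No cytosolic ribosomal protein gene passed an adjusted p of 0.05. Single members differed in both directions: Rpl34 mRNA was lower by 36.3% and Rpl41 and Rps15a mRNAs were higher by 34.0% and 38.5%, each in every hyperthyroid rat against any control and each in one direction under all 21 alternative settings. The median size of a difference over the members was 0.15 log2 units, whichever its sign. Of the 48 genes, 46 passed the filter on low signal and were tested. By limma with Benjamini-Hochberg adjustment over 10200 genes, 0 were called higher, where 0.0686% of all genes were, and 0 lower, where 0% of all genes were. At an unadjusted p under 0.05, 4 were higher (8.7% of the members, 5.38% of all genes) and 5 were lower (10.9% of the members, 5.21% of all genes). Lower calls were more common among bright genes as deposited. Of other genes with a mean log2 level from 12 to 13, 7 of 113 were higher and 17 lower. From 13 to 14 it was 0 and 20 of 71, and at 14 and over 0 and 27 of 38. The members of these levels had 3 and 2 of 22, 1 and 1 of 11, and 0 and 2 of 5. The 4 higher genes were Rpl41, Rps15a, Rpl35a and Rpl18, and the 5 lower ones Rpl34, Rpsa, Rpl12, Rps29 and Rpl7a. The counts moved with the scaling of the arrays. Quantile normalization gave 9 higher and 1 lower (5.55% and 4.55% of all genes), median centring 9 and 1 (14.1% and 1.1%) and scaling to the hybridization controls 14 and 0 (19.6% and 0.598%). The last 2 raise all genes, to medians of 0.22 and 0.31, so a sign that turns under them alone need be no change relative to other genes. The counts also depend on single arrays. The 4 higher members became 2 without hyperthyroid 2 or without control 7, where the 549 of all genes became 427 and 543. The 5 lower ones became 3 without hyperthyroid 1 or 5 and 1 without control 8. There the 531 of all genes became 515, 465 and 492.

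The 2 groups of arrays did not overlap for 6 members that were higher in hyperthyroid rats (13%, against 3.34% of all genes) and for 7 that were lower (15.2%, against 3.21% of all genes). The higher ones were Rpl41, Rpl11, Rpl18, Rpl35a, Rps6 and Rps15a, and the lower ones Rpl34, Rpsa, Rps29, Rpl39l1, Rpl26, Rpl37a and Rpl12. Among other genes, too, lack of overlap downward was more common at high signal as deposited. From a mean log2 level of 12 to 13, 5 of 113 other genes were apart upward and 10 downward. From 13 to 14 it was 0 and 8 of 71, and at 14 and over 0 and 18 of 38. The members of these levels had 4 and 2 of 22, 2 and 1 of 11, and 0 and 3 of 5. Under quantile normalization the groups did not overlap for 9 higher members and 2 lower ones (3.58% and 3.02% of all genes), so the balance of directions depends on the scaling. The median SE was 0.12 over the members and 0.27 over all genes. The median log2 fold change was -0.067 over the 46 members, of which 17 lay above 0 and 29 below, and -0.000286 over all genes. This slight tilt turned with the scaling of the arrays, as given below with the signal levels.

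**Figure D1:**
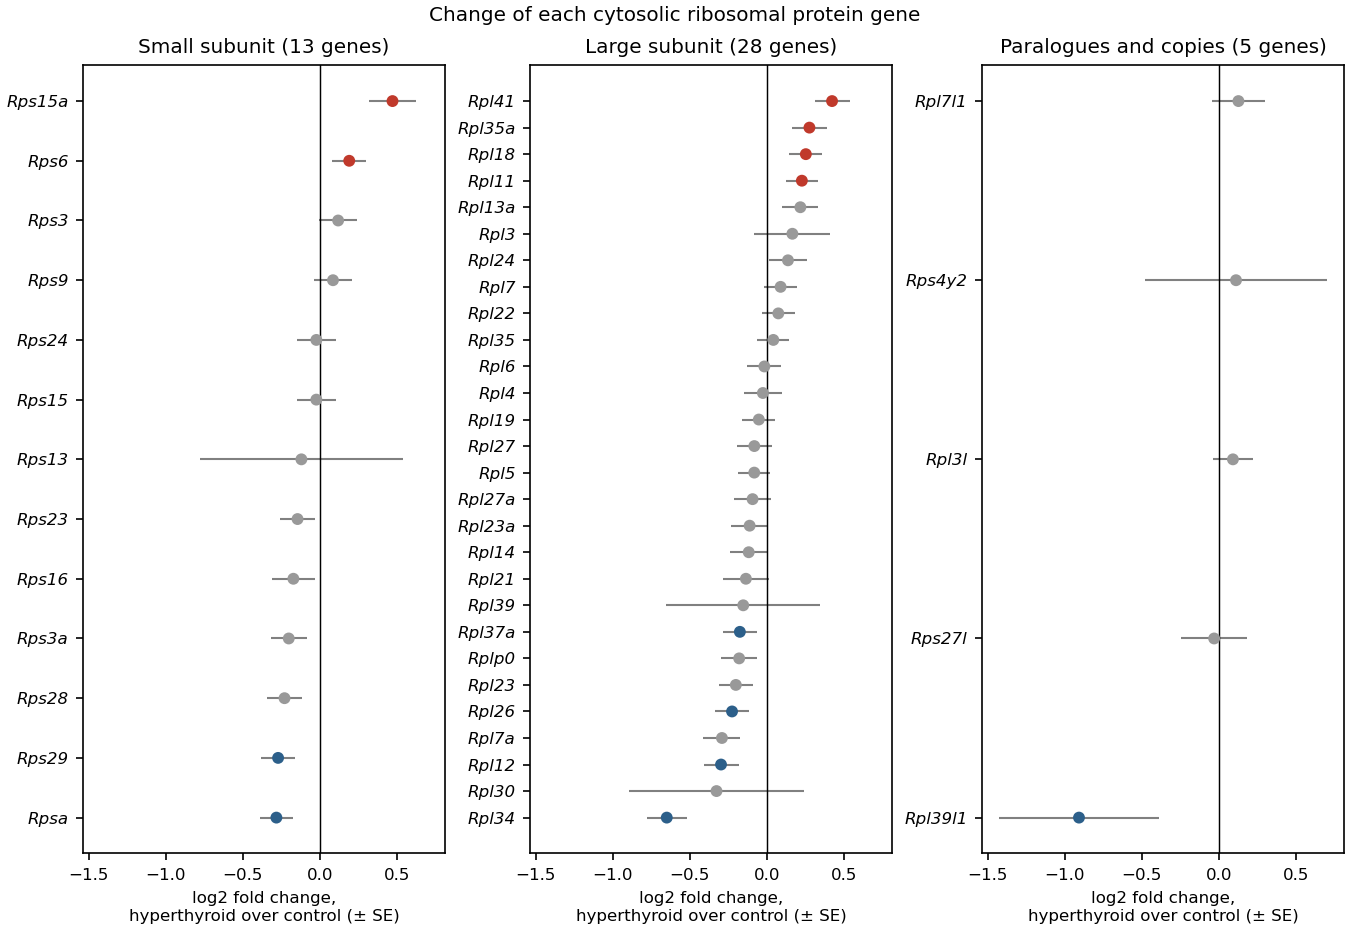
Log2 fold change (hyperthyroid over control, horizontal axis) of the 46 tested genes by class, with bars of 1 SE from limma; red and blue points mark genes whose 4 hyperthyroid arrays all lay above or all below the 4 controls, grey points genes whose groups overlapped. Small and large subunit genes spread to both sides of 0, from -0.28 to 0.47 and from -0.65 to 0.42. Of the 7 blue points, Rps29, Rpl26 and Rpl37a turned sign under quantile normalization, and all but Rpl34 and Rpl39l1 under scaling to the hybridization controls. The latter scaling raised the median of all genes to 0.31.

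The member with the smallest p was Rpl34, a large subunit protein. Its intensity was 5173, 5868, 5939 and 4860 in hyperthyroid rats 1, 3, 5 and 2 and 7180, 9231, 8221 and 9749 in controls 7, 8, 9 and 11. Every hyperthyroid array lay below every control, and the lowest control stood clear of the highest hyperthyroid array by 0.27 log2 units. The means were 5460 ± 529 and 8595 ± 1137 (SD, n = 4 each), so the hyperthyroid level was 0.637 times that of controls on the scale of the fit. The log2 fold change was -0.65 ± 0.13 (SE; limma adjusted p = 0.135). It ranked 18 among 10200 genes by p. The direction held under all 21 alternative settings, with values from -0.73 to -0.33 and adjusted p from 0.0914 to 0.429.

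Rpl41, the smallest ribosomal protein, a short basic peptide at the interface of the subunits, had the smallest p of the higher members. Its intensity was 5862, 5569, 6251 and 6533 in hyperthyroid rats 1, 3, 5 and 2 and 4943, 4131, 4287 and 4724 in controls 7, 8, 9 and 11. The groups did not overlap, and their means were 6054 ± 424 and 4521 ± 377 (SD, n = 4 each). The log2 fold change was 0.42 ± 0.11 (limma adjusted p = 0.239). Rps15a, a protein of the body of the small subunit, read 9741, 10466, 9070 and 12329 in hyperthyroid and 8257, 9019, 7151 and 5811 in control rats. Hyperthyroid 5 lay just above control 8, so the groups were apart by only 0.0081 log2 units, and the log2 fold change was 0.47 ± 0.15 (limma adjusted p = 0.307). Both genes were higher under all 21 alternatives, and under scaling to the hybridization controls, where 110 of all genes passed, both passed (log2 fold changes 0.74 and 0.79, limma adjusted p = 0.0369 each). Over all alternatives the limma adjusted p ran from 0.0369 to 0.480 for Rpl41 and from 0.0369 to 0.534 for Rps15a.

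**Figure D2:**
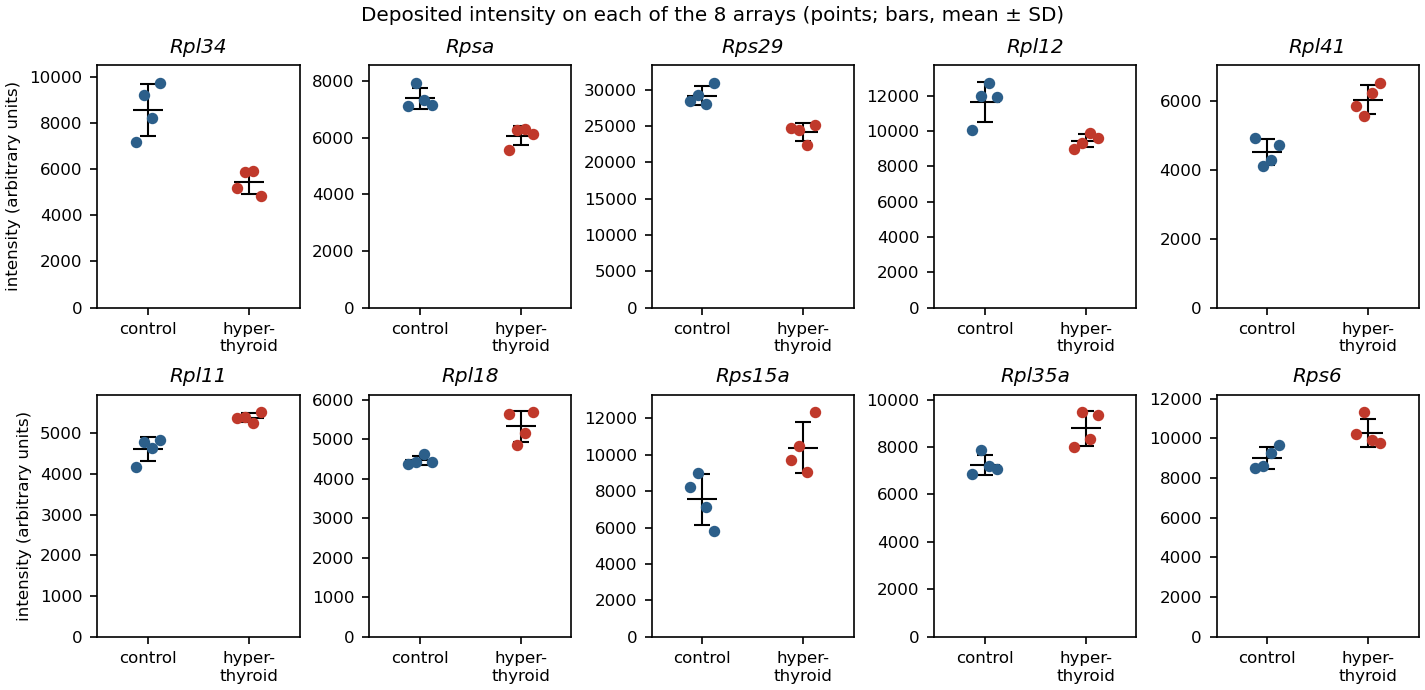
Deposited intensity (arbitrary units, vertical axes from 0) of 10 ribosomal protein genes on each array, as points, with the mean and SD of the 4 control (blue) and 4 hyperthyroid (red) rats as black bars. The 2 colours are apart in every panel, most widely for Rpl34 (means 5460 and 8595) and narrowly for Rps15a and Rps6. The lower intensities of Rpsa, Rpl12 and Rps29 in hyperthyroid rats turned to slightly higher ones under scaling to the hybridization controls, and that of Rps29 also under quantile normalization. Scaling to the hybridization controls raised the median log2 fold change of all genes to 0.31.

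The DNA around the annotated start of transcription is shown for the 2 members with the smallest p, Rpl34 and Rpl41, for Rps15a, for Rpl35a and Rplp0, whose starts show the pyrimidine tract well, and for the muscle paralogue Rpl3l. RefSeq promoters of the rat assembly GRCr8 were given for 41 of the 48 genes. Each line holds 30 bases, 5' to 3' on the gene's strand, of which base 16 is the first transcribed one, so that 15 bases lie before the gene and 15 in its first exon. Capitals mark the unbroken run of pyrimidines that covers base 16, and a line without capitals has a purine there.
Rpl34: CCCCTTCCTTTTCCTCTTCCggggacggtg
Rpl35a: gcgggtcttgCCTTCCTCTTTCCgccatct
Rplp0: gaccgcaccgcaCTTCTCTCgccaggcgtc
Rpl41: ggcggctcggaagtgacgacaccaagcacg
Rps15a: cggcgttttctttccacagtcaccatggtg
Rpl3l: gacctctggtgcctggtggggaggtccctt
In order, these lie at chr2:221962269-221962298 (minus strand), chr11:81235007-81235036 (minus), chr12:46718376-46718405 (minus), chr7:1563483-1563512 (minus), chr1:181860270-181860299 (minus) and chr10:14258431-14258460 (plus). Rpl34 and Rplp0, both lower in hyperthyroid rats as deposited, and Rpl35a, which was higher, all began with such a run, while Rpl41 and Rps15a, both higher, did not. Rplp0 turned to higher under median centring and under scaling to the hybridization controls.

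A C at the annotated start followed by at least 4 pyrimidines was found in 11 of the 41 promoters (26.8%), against 2.63% of 33469 rat promoters. It was found in 9 of 24 large subunit genes, 2 of 11 small subunit genes and 0 of 6 paralogues. An annotated start a few bases off hides the tract, so the share is a description of the annotation. The 10 tested genes with the tract had a median log2 fold change of -0.086 (3 above 0) and the 29 without it -0.027 (12 above 0). By a run of at least 8 pyrimidines over the start, found in 14 of the 41 promoters (34.1%, against 4.43% of all), the order was opposite: the 13 tested genes with the run had a median of -0.027 (4 above 0) and the 26 without it -0.057 (11 above 0). In the 300 bases around the start, on either strand, CCGGAA, a motif of ETS-family factors, stood in 16 of 41 promoters (39%, against 15% of all) and GGGCGG, a GC box, in 25 (61%, against 33.1%). AGGTCA, the core site of thyroid hormone receptors and other nuclear receptors, stood in 7 (17.1%, against 16.2%), and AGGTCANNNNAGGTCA, its direct repeat, in 0 (against 0.00598%). TATAAA stood in 6 (14.6%, against 14.2%). Among the 21851 promoters of protein-coding genes the shares were 2.52% for the C with 4 pyrimidines and 3.95% for the run of 8. They were 17.7% for CCGGAA, 41.8% for GGGCGG, 14.2% for AGGTCA and 13% for TATAAA. The 7 genes with AGGTCA, Rpl34 and Rpl11 among them, had a median of 0.090 (4 above 0) and the 32 without it -0.068 (11 above 0).

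The small subunit genes lay on both sides of 0. Their median was -0.12, with 4 of 13 above 0 and 9 below, and it turned to 0.040 under quantile normalization. Relative to the median of all genes it was -0.12 as deposited and under median centring, -0.14 under scaling to the hybridization controls and 0.018 under quantile normalization. Rps6, the substrate of the S6 kinases that mTORC1 drives, read 10200, 11300, 9894 and 9740 in hyperthyroid and 8512, 8600, 9277 and 9665 in control rats. The groups did not overlap, although hyperthyroid 2 and control 11 were almost equal, and the log2 fold change was 0.19 ± 0.11 (limma adjusted p = 0.569). It was higher under all 21 alternatives.

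Rpsa, which sits at the exit side of the mRNA and was first described as a laminin receptor, read 5581, 6292, 6313 and 6146 in hyperthyroid and 7118, 7935, 7358 and 7179 in control rats. The groups did not overlap, and the log2 fold change of -0.28 ± 0.11 (limma adjusted p = 0.382) turned to 0.038 under scaling to the hybridization controls alone. The other 2 Rpsa probe sets read -0.16 ± 0.13 and -0.25 ± 0.18, in the same direction. The remaining genes of body and platform were Rps3a (-0.20), Rps23 (-0.15), Rps13 (-0.12), Rps24 (-0.024) and Rps9 (0.084), and over all 8 genes of this region the median was -0.072. Rps13, which shapes the platform, was near the floor of the array (27.2 ± 15.3 against 31.3 ± 23.8, SD, n = 4 each), and it turned sign under 6 of its 19 alternatives.

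Among the 5 genes of the small subunit's head the median was -0.17, and 4 of them lay below 0. Rps29, a zinc-binding protein, read 24674, 24410, 22321 and 25123 in hyperthyroid and 28357, 29306, 27952 and 30872 in control rats. No hyperthyroid array reached a control, and the log2 fold change of -0.27 ± 0.11 (limma adjusted p = 0.414) shrank to a sign change under quantile normalization (0.014) and scaling to the hybridization controls (0.049). Rps28, at the mRNA exit, was at -0.23 ± 0.11 and turned to 0.091 under hybridization control scaling. Rps3, which lines the channel where the mRNA enters, was the one head gene above 0, at 0.12 ± 0.12, and turned to -0.016 without controls 7 and 11. Rps16 (-0.17) and Rps15 (-0.024) complete the head.

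The large subunit genes also lay on both sides of 0. Their median was -0.082, with 10 of 28 above 0 and 18 below, and it turned to 0.055 under quantile normalization. Relative to the median of all genes it was -0.082 as deposited and under median centring, -0.074 under scaling to the hybridization controls and 0.032 under quantile normalization. At the base of the stalk, where elongation factors bind, both measured proteins were lower as deposited. Rpl12 read 9004, 9327, 9859 and 9582 in hyperthyroid and 10028, 11957, 12705 and 11900 in control rats. Control 7 lay just above hyperthyroid 5, and the log2 fold change of -0.30 ± 0.11 (limma adjusted p = 0.387) turned to 0.023 under scaling to the hybridization controls. Rplp0, the core of the stalk and a common reference gene for PCR, read 8485, 7473, 6961 and 8945 in hyperthyroid and 9322, 8897, 8543 and 9188 in control rats. Its groups overlapped at hyperthyroid 2 and controls 8 and 9, the log2 fold change was -0.18 ± 0.12 (limma adjusted p = 0.613), and the sign turned under median centring (0.040) and scaling to the hybridization controls (0.14).

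Rpl5 and Rpl11 carry 5S ribosomal RNA into the large subunit as a pair and bind Mdm2 when ribosome assembly stalls. Their differences had opposite signs. Rpl11 read 5386, 5388, 5249 and 5511 in hyperthyroid and 4179, 4784, 4632 and 4840 in control rats, with no overlap, and was at 0.23 ± 0.11 (limma adjusted p = 0.476) and above 0 under all 21 alternatives. Rpl5 ranged from 7732 to 8658 in hyperthyroid and from 8188 to 8950 in control rats, which overlapped, and was at -0.082 ± 0.10, turning to 0.044 under quantile normalization, 0.14 under median centring and 0.24 under scaling to the hybridization controls. The difference between the 2 genes was not tested.

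The 7 proteins of the peptide tunnel and its exit were near no difference, with a median of -0.053 and a range from -0.23 to 0.074. Rpl26 was the only one of them whose groups did not overlap, at 16088 to 18780 in hyperthyroid and 19163 to 21990 in control rats (-0.23 ± 0.11, limma adjusted p = 0.497), and it turned to 0.017 under quantile normalization and 0.094 under scaling to the hybridization controls. Rpl4, which reaches into the tunnel, was at -0.027 ± 0.12 and Rpl22, at its outer rim, at 0.074 ± 0.11. Rpl4 turned sign under 6 of 21 alternatives, all 3 scalings among them, and Rpl22 under none. Rpl23a, the dock of the signal recognition particle, was at -0.11, Rpl19 at -0.053 and Rpl35 at 0.041. Rpl39, which lines the tunnel's narrow part, gave a weak signal (130 ± 77.8 against 155 ± 110, SD, n = 4 each). Its log2 fold change was -0.15 ± 0.50 and turned sign under 6 of 21 alternatives.

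Of the other 17 large subunit genes tested, 7 were above 0 and 10 below, with a median of -0.082. Rpl35a, a gene mutated in Diamond-Blackfan anaemia, read 7984, 9459, 8345 and 9369 in hyperthyroid and 6863, 7865, 7201 and 7081 in control rats. The groups were apart by 0.022 log2 units, and the log2 fold change was 0.28 ± 0.11 (limma adjusted p = 0.423). Rpl18 read 5629, 4856, 5146 and 5676 in hyperthyroid and 4383, 4430, 4623 and 4421 in control rats. The 4 controls lay close together below every hyperthyroid array, and the log2 fold change was 0.25 ± 0.11 (limma adjusted p = 0.441). Both genes were higher under all 21 alternatives.

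Rpl7a, whose introns encode small nucleolar RNAs, read 16632, 18584, 18169 and 20245 in hyperthyroid and 19746, 23173, 25123 and 22226 in control rats. Only hyperthyroid 2 and control 7 overlapped, and the log2 fold change of -0.29 ± 0.12 (limma adjusted p = 0.431) turned to 0.029 under scaling to the hybridization controls. Rpl37a, a zinc-binding protein, read 18710, 18893, 17083 and 18991 against 19319, 22165, 20718 and 21045. The groups were just apart, hyperthyroid 5 was lower than its group, and the log2 fold change of -0.18 ± 0.11 (limma adjusted p = 0.592) turned sign under all 3 other scalings (0.066, 0.044 and 0.14). Rpl23, which can bind Mdm2, was at -0.20 ± 0.11 with overlapping groups and turned under median centring (0.018) and hybridization control scaling (0.12).

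Rpl13a, which leaves the ribosome to join a translation-silencing complex in immune cells, was at 0.22 ± 0.12 (limma adjusted p = 0.545), Rpl3, near the catalytic centre, at 0.16 ± 0.25 and Rpl24, at a bridge to the small subunit, at 0.14 ± 0.12. All 3 overlapped between groups and stayed above 0 under all 21 alternatives, Rpl24 and Rpl3 down to 0.0078 and 0.0039. The rest were Rpl7 (0.088), Rpl6 (-0.017), Rpl27 (-0.082), Rpl27a (-0.093), Rpl14 (-0.12), Rpl21 (-0.14) and Rpl30 (-0.33 ± 0.57), none with an unadjusted p under 0.05. Rpl30 was near the floor of the array, at 34.1 ± 18.3 in hyperthyroid and 44.2 ± 21.9 in control rats (SD, n = 4 each). Rpl28 was below the filter (22.2 ± 14.6 against 17.0 ± 16.4, SD, n = 4 each) and was not tested.

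The paralogue of muscle showed no difference larger than its spread. Rpl3l, which replaces Rpl3 in part of the ribosomes of heart and skeletal muscle, read 6809, 6645, 6639 and 7353 in hyperthyroid and 6090, 7671, 7009 and 5248 in control rats. The hyperthyroid arrays lay inside the range of the controls, the log2 fold change was 0.090 ± 0.13 (limma adjusted p = 0.847), and the value turned to -0.0077 without control 11 and -0.097 without controls 7 and 11. Rpl3 itself ranged from 1044 to 2143 in hyperthyroid and from 1064 to 2248 in control rats, which overlapped throughout. Levels of different probe sets cannot be set against each other, so the share of the 2 proteins' mRNAs was not read.

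Rps27l, a p53-responsive copy of Rps27, was at -0.031 ± 0.22 and turned sign under 5 of 21 alternatives, and Rpl7l1, an assembly factor related to Rpl7, at 0.13 ± 0.17. Rpl39l1, a copy of Rpl39, read 8.90, 22.7, 36.0 and 36.9 in hyperthyroid and 43.6, 40.1, 49.8 and 54.8 in control rats. Its groups did not overlap, but these are signals near the floor of the array, and the log2 fold change of -0.91 ± 0.52 had a limma adjusted p of 0.566. Rps4y2 (31.3 ± 8.99 against 32.9 ± 21.9, SD, n = 4 each) was at 0.11 ± 0.59 and turned sign when hyperthyroid 1, control 7 or control 9 was left out. Rpl26l1 (28.3 ± 17.6 against 31.3 ± 25.4, SD, n = 4 each) was below the filter and was not tested.

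The level of both subunits was also read array by array. As deposited, the median deviation of the 13 small subunit genes from each gene's mean was -0.077, 0.010, -0.059 and -0.0087 in hyperthyroid rats 1, 3, 5 and 2 and -0.069, 0.12, -0.029 and 0.099 in controls 7, 8, 9 and 11. For the 28 large subunit genes it was -0.071, 0.016, 0.048 and 0.019 and -0.058, 0.089, 0.018 and 0.038. On this scale hyperthyroid 1 and control 7 were low and controls 8 and 11 high in both, hyperthyroid 5, hyperthyroid 2 and control 9 had opposite signs in the 2 subunits, and the groups overlapped in both. Under quantile normalization the large subunit medians were 0.0099, 0.066, 0.14 and 0.023 in hyperthyroid and -0.12, -0.0086, -0.016 and -0.057 in control rats. By this median every hyperthyroid array lay above every control. By the mean the groups overlapped, with hyperthyroid 1 (-0.049) below controls 8, 9 and 11 (-0.010, 0.0027 and -0.010). The small subunit medians ran from 0.026 to 0.073 and from -0.16 to 0.043, and only control 11 reached the hyperthyroid arrays. As deposited, hyperthyroid 1 was the lowest of the 8 arrays for 9 of 28 large subunit genes. The mean of the small less the mean of the large subunit genes ran from -0.16 to 0.11 in hyperthyroid and from -0.041 to 0.075 in control rats as deposited, which overlapped.

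**Figure D3:**
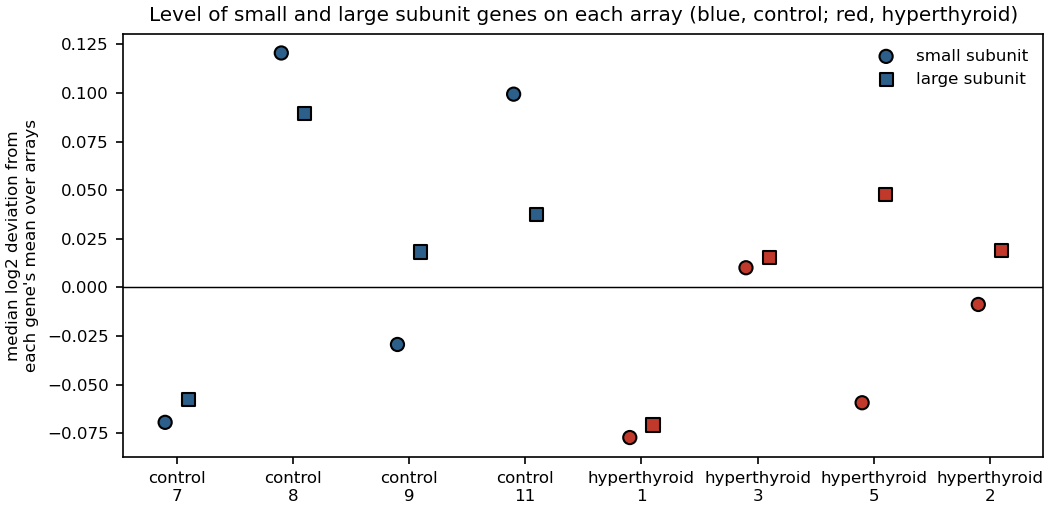
Median log2 deviation of the deposited values from each gene's mean over the 8 arrays (vertical axis), for 13 small subunit genes (circles) and 28 large subunit genes (squares), by array, controls in blue and hyperthyroid rats in red. Controls 8 and 11 are the highest for the small subunit (0.12 and 0.099), hyperthyroid 1 and control 7 the lowest, and the 2 groups overlap for both subunits on this scale. Under quantile normalization they were apart by the median for the large subunit (lowest hyperthyroid array 0.0099, highest control -0.0086). By the mean they overlapped there too (hyperthyroid 1 -0.049, control 9 0.0027).

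Among bright probe sets the differences were lower at higher signal as deposited, for the members and for other genes. Of the 22 members with a mean log2 level from 12 to 13, 11 were above 0 and 11 below (median 0.012), where 113 other genes of that level had a median of -0.10. From 13 to 14, 3 of 11 members were above 0 (median -0.082), and 71 other genes had a median of -0.18. At 14 and over all 5 members were below 0 as deposited (Rps29, Rpl7a, Rpl37a, Rpl26 and Rps3a, median -0.23), and so were 37 of 38 other genes (median -0.39). Under quantile normalization, which gives every array one distribution, 4 of these 5 members were above 0 and their median was 0.014, and that of the 39 other genes was -0.011. In these 3 ranges the members' median stood above that of other genes of like signal, in both scalings. At a mean log2 level under 10 the order was opposite, with 5 of 7 members below 0 (median -0.12 as deposited and -0.076 under quantile normalization) and other genes at a median of 0.0016 and 0.027. The 1 member between 10 and 12 was Rpl3. Whether members differed from other genes of their level was not tested.

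**Figure D4:**
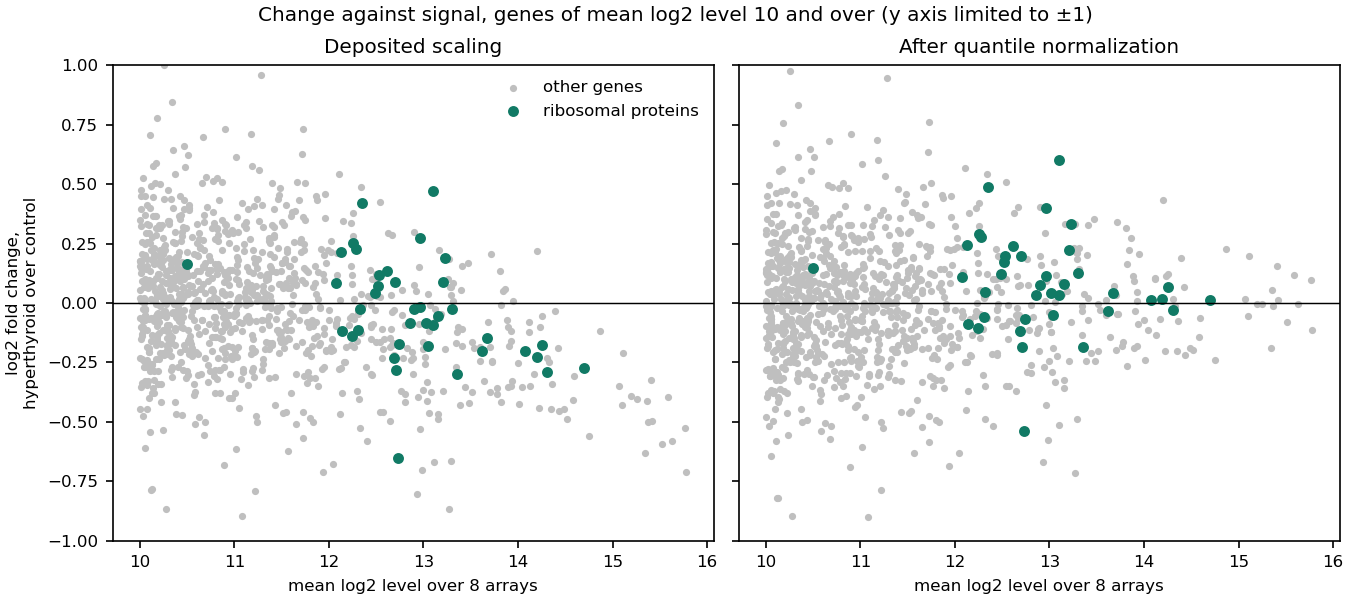
Log2 fold change (hyperthyroid over control, vertical axis, limited to 1 on either side) against mean log2 level over 8 arrays for genes of level 10 and over, as deposited (left) and after quantile normalization (right); green points are ribosomal proteins and grey points other genes. On the left the brightest genes sink below 0, with ribosomal proteins of level 14 and over at a median of -0.23 and other genes at -0.39; on the right both lie near 0 (0.014 and -0.011), and 28 of the 39 ribosomal proteins shown are above 0, against 15 on the left.

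Over all 46 members, 17 were above 0 as deposited, 31 under quantile normalization, 37 under median centring and 43 under scaling to the hybridization controls. Those settings move all genes too: the median of all genes was 0.023, 0.22 and 0.31, against member medians of 0.046, 0.15 and 0.25. Relative to the median of all genes, 29 of 46 members were lower as deposited, 18 under quantile normalization and 29 under each of the other 2. Above 0 under all 21 alternatives were Rpl41, Rps15a, Rpl35a, Rpl18, Rpl11, Rpl13a, Rps6, Rpl24, Rpl3 and Rpl22 among the 29 members followed through them, and below 0 throughout were Rpl34 and, in the 20 settings that kept it, Rpl39l1. Since median centring and scaling to the hybridization controls raise all genes, they tend to keep higher genes above 0 and to turn lower ones. The numbers of genes in the 2 lists can therefore not be set against each other. Rpsa, Rpl12, Rpl7a and Rps28 turned under scaling to the hybridization controls alone.

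Several probe sets were at hand for 6 of the genes. The 2 of Rpl7 disagreed: its brightest probe set was at 0.088 ± 0.11 and the other, with intensities of 423 ± 95.6 and 515 ± 68.9 (SD, n = 4 each), at -0.30 ± 0.18. The pairs of Rpl7l1 (0.13 and -0.061) and Rpl3 (0.16 and -0.0059) also differed in sign, all within 2 SE of 0. Those of Rps24 (-0.024 and -0.21) and the 3 of Rpsa had one sign, and the second Rpl14 probe set was below the filter. A further 36 probe sets carried several symbols with a ribosomal protein among them and were left out. Of the 35 tested, 4 had an unadjusted p under 0.05 upward and 9 downward (4.91% and 4.76% of all probe sets did), 0 passed after limma's adjustment, and their median was -0.094, with 10 above 0 and 25 below as deposited. Rplp1, Rplp2, Rps2, Rps4x, Rps14, Rps19, Rps27, Rps27a, Rpl10, Rpl10a, Rpl22l1, Rpl32, Rpl36a, Rpl36al and Rpl38 had no probe set with a single symbol and have no value here. Ribosomal protein genes have many processed copies in mammalian genomes, and signal from such copies was not told apart from the gene's own.

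Among genes that make and serve the ribosome, differences leaned upward, and no list held a gene past an adjusted p of 0.05 with limma. Of 76 tested ribosome biogenesis factors, 56 were above 0 and 20 below, with a median of 0.13; 10 had an unadjusted p under 0.05 upward, where 5.38% of all genes did, and 1 downward, where 5.21% did. The 10 ranged from 7 to 12 when single arrays were left out, where 397 to 601 of all genes were higher. Without controls 7 and 11 it was 6, where 608 of all genes were higher, against 549 with the reported settings. It was 8 under quantile normalization (5.55% of all genes), 24 under median centring (14.1%) and 27 under scaling to the hybridization controls (19.6%). Nolc1, a nucleolar chaperone of small nucleolar RNAs, read 367, 269, 269 and 349 in hyperthyroid rats 1, 3, 5 and 2 and 182, 172, 242 and 157 in controls. No array of one group reached the other, and the log2 fold change was 0.73 ± 0.20 (limma adjusted p = 0.239). Sbds, which releases Eif6 from new large subunits, was at 643 ± 46.3 against 447 ± 37.0 (SD, n = 4 each) and 0.52 ± 0.14 (limma adjusted p = 0.237), but at -0.27 when the mean of both its probe sets was used. Rsl1d1, a nucleolar protein, was at 0.39 ± 0.14. The 1 lower gene was Mdn1 (-0.78 ± 0.30), a remodelling ATPase named after its value was seen.

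The elongation factors also lay on both sides of 0. Eef1g and Eef1b2, subunits of the exchange factor that recharges Eef1a with GTP, are themselves TOP mRNAs. Eef1g read 5660, 6395, 5567 and 7104 in hyperthyroid and 4639, 4581, 4386 and 3981 in control rats, with no overlap (0.49 ± 0.12, limma adjusted p = 0.221). Eef1b2 was at 4366 ± 344 against 3233 ± 288 (SD, n = 4 each), also apart (0.43 ± 0.12, limma adjusted p = 0.239). Of the 2 forms of Eef1a, the muscle form Eef1a2 was at 0.41 ± 0.13 (limma adjusted p = 0.307) and the general form Eef1a1 at -0.37 ± 0.21 (limma adjusted p = 0.569), the latter turning to 0.035 when its probe sets were averaged. Eef2, which moves the ribosome along, was at 0.21 ± 0.18. Over the 9 elongation factors 7 were above 0, with a median of 0.26. An unadjusted p under 0.05 was reached by 3 upward (5.38% of all genes) and 0 downward (5.21% of all genes).

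Of the 13 tested TOP mRNAs that do not encode ribosomal proteins, 5 of them also in the list of elongation factors, 9 were above 0 and 4 below, with a median of 0.20. An unadjusted p under 0.05 was reached by 2 upward (5.38% of all genes) and 1 downward (5.21% of all genes), Eif3f, a subunit of initiation factor 3. It read 2156, 2539, 2472 and 2376 in hyperthyroid and 3188, 3386, 3245 and 3012 in control rats, with no overlap, and was at -0.43 ± 0.11 (limma adjusted p = 0.231) and below 0 under all 21 alternatives. TOP mRNAs lay on both sides of 0, Rpl34 and Eif3f below and Eef1g and Eef1b2 above in every alternative.

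**Figure D5:**
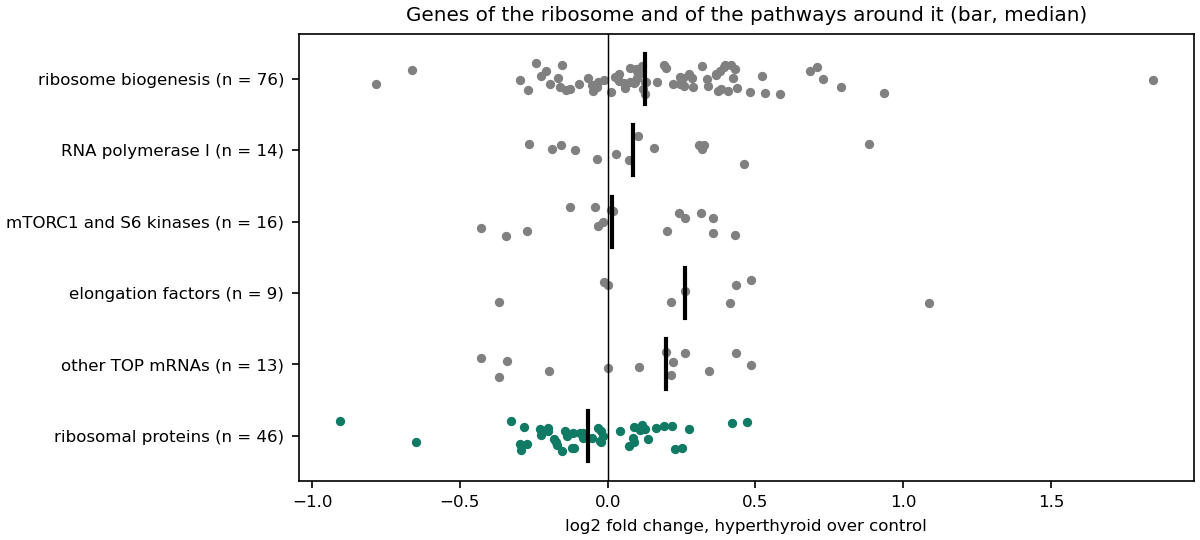
Log2 fold change (hyperthyroid over control, horizontal axis) of each tested gene in 6 lists, with a bar at the list's median; vertical scatter within a row only separates points, and elongation factors and TOP mRNAs share 5 genes. The ribosomal proteins run from -0.91 to 0.47 with a median of -0.067, which turned to 0.046 under quantile normalization. The ribosome biogenesis factors run from -0.78 to 1.85, with a median of 0.13 and 56 of 76 genes above 0. Their signal was weaker (median log2 level 7.61, against 12.7 for the ribosomal proteins) and their median SE larger (0.23 against 0.12).

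The signalling genes upstream of these mRNAs had no common direction. Of 16 tested genes of mTORC1 and S6 kinase signalling 9 were above 0 and 7 below (median 0.015). An unadjusted p under 0.05 was reached by 1 upward (5.38% of all genes) and 1 downward (5.21% of all genes). The higher one was Pdpk1, a kinase that activates Akt and S6 kinases (0.43 ± 0.15, limma adjusted p = 0.336). The lower one was Rheb, the GTPase that activates mTORC1 (-0.27 ± 0.12, limma adjusted p = 0.441), turning to 0.048 under scaling to the hybridization controls. Mtor itself was at -0.033 ± 0.16, the S6 kinase gene Rps6kb1 at 0.36 ± 0.23 and Larp1 at 0.32 ± 0.15. Of 14 tested RNA polymerase I genes 9 were above 0 (median 0.087). Polr1b, its second largest subunit, was at 0.89 ± 0.28 (limma adjusted p = 0.304), Polr1f at 0.46 ± 0.23, Polr1d at -0.19 ± 0.14 and the activator Ubtf at 0.072 ± 0.22. Myc was below the filter. Rack1, a scaffold on the small subunit's head, was at -0.13 ± 0.11 and turned under median centring and hybridization control scaling.

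The 73 mitochondrial ribosomal proteins, which build the separate ribosome of the mitochondrion, had a median of -0.0012, with 36 above 0 and 37 below. With limma 1 passed an adjusted p of 0.05 upward, where 0.0686% of all genes did. It was Mrps18c, a protein of the small mitochondrial subunit (1.12 ± 0.18, adjusted p = 0.0387). At an unadjusted p under 0.05, 5 were higher (6.85%, against 5.38% of all genes) and 6 lower (8.22%, against 5.21% of all genes). The cytosolic members had 8.7% and 10.9% by the same rule, and the difference between the families was not tested.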

How the data were processed

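Intensities on a linear scale were deposited by the authors, and the submitters' processing notes name GCOS, an Affymetrix program, whose version and settings the sources used here do not state. The mean without the outer 2% of values at each end was 150 on all arrays. Per the labels' protocols, cDNA was primed with oligo(dT) and its RNA copy carried biotin, which weights signal to the 3' end of a transcript. No scanner values, detection calls or pairing were used, and the number of arrays limits the precision.

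The scale of analysis was log2(intensity + 3.41), where the added value is the 10th percentile of the table. Non-control probe sets were kept when their mean lay above the 40th percentile (log2 4.69, an intensity of about 22.4), and the brightest kept probe set stood for a gene, which left 10200 genes. Groups were compared with limma 3.58.1 in R 4.3.3 (lmFit, eBayes with trend, two-sided), with Benjamini-Hochberg adjustment at 0.05 over all genes; the code was tested on simulated data. The members, the gene lists and the rule for named genes were chosen with earlier results of these data known. Named members were up to 8 in each direction with the smallest p, the 3 with the highest and the 3 with the lowest mean, up to 6 in each direction whose groups did not overlap, and 29 fixed genes (14 of them members); the remaining members are given to complete each class. Of genes outside the set, 11 fixed ones and the 3 of each list with the smallest p were to be named, of which a part is, and 1 item is not reported here. The 21 alternatives changed the scaling (quantile, median centring, 18 hybridization control probe sets), the pseudocount or floor, the filter, the variance model, the probe set of a gene, or left out arrays. Promoters are RefSeq's for GRCr8 (250 bases before to 50 after the start). Entrez IDs matched 46 of the 48 genes to RefSeq.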

Additional observations from a re-analysis of the deposited data

Results flagged for a closer look

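Rpl37a was the 1 result that stood out in a search for single arrays far from their group, made over 58 groups of 4 arrays (29 named members in each condition). Hyperthyroid 5 read 17083.4, while the other hyperthyroid rats read from 18709.9 to 18991.2, so the gap to the nearest was 0.859 of the group's range on the log2 scale, above the critical value of Dixon's test for 4 samples. Chance alone is expected to mark about 1 in 20 such groups. Hyperthyroid 5 was also the lowest array for Rplp0, Rps13, Rps16, Rps28 and Rps29.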

How the results depend on the processing

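Over 29 named members and 21 alternatives 605 values were computed; 558 kept the sign of the reported value, 47 turned, and 2 passed an adjusted p of 0.05. No member passed with the reported settings or under the other 20 alternatives. Scaling was the choice with most effect. Quantile normalization gave 9 members with an unadjusted p under 0.05 upward and 1 downward (5.55% and 4.55% of all genes), with medians of 0.046 (all members), 0.040 (small subunit) and 0.055 (large); Rps29 turned to 0.014, Rpl26 to 0.017, Rpl37a to 0.066, Rps13 to 0.037, Rpl4 to 0.077 and Rpl5 to 0.044. Median centring gave 9 and 1 (14.1% and 1.1% of all genes), with medians of 0.15, 0.10 and 0.14; Rpl23 turned to 0.018, Rpl37a to 0.044, Rps13 to 0.10, Rplp0 to 0.040, Rps27l to 0.19, Rpl4 to 0.19, Rpl5 to 0.14 and Rpl39 to 0.066. Scaling to the hybridization controls gave 2 members past an adjusted p of 0.05, 14 upward and 0 downward (19.6% and 0.598% of all genes), with medians of 0.25, 0.18 and 0.24; Rpsa turned to 0.038, Rpl12 to 0.023, Rps29 to 0.049, Rpl7a to 0.029, Rpl26 to 0.094, Rps28 to 0.091, Rpl23 to 0.12, Rpl37a to 0.14, Rps13 to 0.16, Rplp0 to 0.14, Rps27l to 0.29, Rpl4 to 0.29, Rpl5 to 0.24 and Rpl39 to 0.16. Centring and hybridization control scaling also moved the median of all genes, to 0.22 and 0.31. The cause was not tested.

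Without a filter 2 members were upward and 3 downward, where 631 and 685 of all genes were. Without a variance trend it was 2 and 2 members, where 450 and 527 of all genes were. With array weights the small subunit median was -0.0083, Rps13 turned to 0.20 and Rps27l to 0.047. Leaving out single arrays gave 2 to 4 members upward (2 without hyperthyroid 2 or control 7) and 1 to 6 downward (1 without control 8, 3 without hyperthyroid 1 or 5). In these settings 397 to 601 of all genes were upward and 406 to 609 downward. The small subunit median ran from -0.16 to -0.018 (the last without control 11). Leaving out single arrays also gave ranges across 0 for Rps13 (-0.41 to 0.29), Rps4y2 (-0.19 to 0.44), Rps27l (-0.15 to 0.20), Rpl3l (-0.0077 to 0.17), Rpl4 (-0.079 to 0.034) and Rpl39 (-0.52 to 0.25). With controls 7 and 11 left out together 2 members were upward and 6 downward, where 608 and 358 of all genes were. In that setting Rps3 turned to -0.016 and Rpl3l to -0.097. No paired analysis was possible because the groups share no replicate number. Signals near the floor limit Rps13, Rps4y2, Rpl30 and Rpl39l1, whose SE were 0.52 to 0.66.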
